A study of Mus musculus with 81 samples.

Results

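Sites of open chromatin that were listed in every bulk sample group of the study were taken from mouse embryonic stem (ES) cells: a peak of the 0h bulk list belonged to them if it overlapped, by at least 1 bp, a peak in each of the other 12 bulk lists. They numbered 23620 of the 154235 peaks of the 0h list (15.3%), and the remaining 130615 peaks of that list were used for comparison. Since the bulk lists chose the sites, their presence and score in those lists are given as a description. The sites are called constant sites below.

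The study comprised 81 samples in 27 groups of 3. ES cells (129/Ola, wild type, passages 35-45), grown with LIF and inhibitors of Gsk3 and of MEK or the FGF receptor, were sampled at 0h, and at 9h and 48h after FGF2 and Activin A were added to turn them into epiblast-like cells (EpiLC). Embryonic fibroblasts of mice (MEF; Black6-129X1/SvJ, passages 2-3) were heterozygous for Col1a1::tetOP-OKSM, R26-M2rtTA and Oct4GFP, so that 2 µg/mL doxycycline switched on Oct4, Klf4, Sox2 and Myc, and were sampled at 6h, 12h and 36h of reprogramming in medium with LIF and ascorbic acid. At each of these 6 times cells received 20 µM EdU, a thymidine analogue, for 10 min, and newly copied DNA was captured either at once (nascent) or once 10 µM thymidine had chased the label, 2 h after it was given (mature). DNA left in the supernatant of the capture gave the bulk lists, MEF having 1 bulk list from the nascent and 1 from the mature arm. Reprogramming MEF were also sorted at 60h into fractions Q1 to Q4 by a division-tracking dye; which was brightest is not labelled. In a separate experiment on MEF of the same genotype, 3 libraries received 5 µg/mL aphidicolin, an inhibitor of the replicative DNA polymerases, 4 h after induction for 10 h, and 3 untreated libraries were harvested at the same 14h. All MEF groups carried the inducible factors, uninduced MEF were not analysed here, and separate cultures behind the replicates are not labelled as such.

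By presence and raw score, bulk lists went with their labels at ES cell and fibroblast markers in part, and at EpiLC markers they did not. All 5 ES cell markers (Pou5f1, Nanog, Esrrb, Zfp42 and Sox2) had a bulk peak at 0h and at 48h, with a median best score of 3316 at 0h and 1676 at 48h, and 3 to 4 of 5 had one in the MEF bulk lists, where Nanog had none and the median was 558, 1711 and 663 at 6h, 12h and 36h. All 4 EpiLC markers had a peak in every list examined, and their median was lowest in the 48h EpiLC list, at 1113.5, against 1580.5 at 0h and 1382 to 2809 in MEF. All 7 fibroblast markers had a peak in every list examined, with a median best score of 1451, 2739 and 1770 in MEF at 6h, 12h and 36h, against 608 at 0h and 740 at 48h. Of 7 macrophage and blood markers, 2 had a peak at 0h, 4 at 48h and 4 to 5 in MEF lists, where Ptprc and Tyrobp had none. Of 6 endothelial markers, 5 had one at 0h, 6 at 48h and 3 to 4 in MEF lists. All 5 muscle and neural markers had one at 0h and 48h, and 4 to 5 in MEF lists. The part of such cells in any result below was not tested. Scores of different lists need not share a scale. The median score of all peaks was 444 at 0h, 322 at 48h, and 499, 595 and 474 in MEF at 6h, 12h and 36h. Raw scores thus do not settle whether EpiLC markers went with the label.

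ATAC-seq maps open chromatin by where a transposase can insert. When a replication fork passes, nucleosomes are removed ahead of it and formed again on both daughter duplexes, and DNA-binding factors have to bind anew, so that nascent chromatin is less open than mature chromatin at most regulatory sites. Sites open in unrelated cell types are known to be largely CpG-rich promoters of housekeeping genes, which hold short motifs for ubiquitous factors such as Sp1 (the GC box), NF-Y (the CCAAT box), NRF1, YY1, ETS proteins and Zfp143, and which often fire in both directions.

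The promoters of the constant sites that ranked best by peak score in the 13 bulk lists, and that lie in the promoter table used, show this makeup. Each sequence is the 300 bases of RefSeq (GRCm38.p6, the coordinates of mm10) from 250 before to 50 after an annotated start, 5′ to 3′ on the strand of the gene; capitals mark matches, on either strand, to the GC box, the CCAAT box, CRE, NRF1, ETS, YY1 or Zfp143 motifs described below. Hjurp (a chaperone that loads the centromeric histone CENP-A) is at chr1:88277530-88277829, minus strand; Prkaca (the catalytic subunit of protein kinase A) at chr8:83972728-83973027, plus; Fto (a demethylase of RNA) at chr8:91313275-91313574, plus; Mxd4 (a repressor that pairs with Max) at chr5:34187661-34187960, minus; Pa2g4 (a growth-linked RNA-binding protein) at chr10:128565885-128566184, minus; and Glrx5 (a mitochondrial glutaredoxin of iron-sulfur cluster assembly) at chr12:105032368-105032667, plus.
Hjurp: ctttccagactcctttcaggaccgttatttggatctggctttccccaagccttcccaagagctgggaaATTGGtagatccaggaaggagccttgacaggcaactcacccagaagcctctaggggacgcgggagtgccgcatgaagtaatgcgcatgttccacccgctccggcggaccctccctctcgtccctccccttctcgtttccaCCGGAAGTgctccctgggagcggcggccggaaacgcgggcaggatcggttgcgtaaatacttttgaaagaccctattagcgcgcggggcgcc
Prkaca: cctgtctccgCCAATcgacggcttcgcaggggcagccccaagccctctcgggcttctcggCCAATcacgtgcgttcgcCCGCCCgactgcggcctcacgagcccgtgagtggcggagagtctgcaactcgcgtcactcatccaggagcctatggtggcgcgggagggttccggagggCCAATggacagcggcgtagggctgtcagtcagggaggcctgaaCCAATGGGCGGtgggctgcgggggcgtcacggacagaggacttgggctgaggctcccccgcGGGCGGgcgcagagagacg
Fto: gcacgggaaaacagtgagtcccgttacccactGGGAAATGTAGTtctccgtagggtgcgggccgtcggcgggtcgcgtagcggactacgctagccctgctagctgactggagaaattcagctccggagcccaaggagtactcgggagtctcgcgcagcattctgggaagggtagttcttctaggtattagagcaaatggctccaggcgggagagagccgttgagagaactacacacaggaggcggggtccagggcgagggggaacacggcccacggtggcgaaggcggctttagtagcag
Mxd4: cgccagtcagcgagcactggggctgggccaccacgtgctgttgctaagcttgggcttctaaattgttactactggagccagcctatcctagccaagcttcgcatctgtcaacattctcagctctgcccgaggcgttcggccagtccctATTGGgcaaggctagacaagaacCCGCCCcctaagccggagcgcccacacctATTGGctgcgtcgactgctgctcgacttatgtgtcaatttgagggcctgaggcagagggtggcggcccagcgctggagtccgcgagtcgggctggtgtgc
Pa2g4: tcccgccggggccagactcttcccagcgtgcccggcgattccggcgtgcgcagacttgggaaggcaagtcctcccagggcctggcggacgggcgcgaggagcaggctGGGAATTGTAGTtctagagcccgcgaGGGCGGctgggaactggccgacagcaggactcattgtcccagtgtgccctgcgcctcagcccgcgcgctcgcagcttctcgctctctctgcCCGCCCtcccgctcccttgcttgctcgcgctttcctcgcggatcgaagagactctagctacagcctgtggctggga
Glrx5: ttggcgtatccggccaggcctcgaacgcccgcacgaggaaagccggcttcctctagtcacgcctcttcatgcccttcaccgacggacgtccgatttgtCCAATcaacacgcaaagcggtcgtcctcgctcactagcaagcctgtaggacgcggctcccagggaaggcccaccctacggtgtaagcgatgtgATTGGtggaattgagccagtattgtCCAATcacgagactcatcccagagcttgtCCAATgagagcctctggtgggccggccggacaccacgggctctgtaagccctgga
Matches to the CCAAT box stood in 4 of these 6 promoters, with 4 in Prkaca, 4 in Glrx5, 2 in Mxd4 and 1 in Hjurp. GC boxes numbered 3 in Prkaca, 2 in Pa2g4 and 1 in Mxd4. Fto and Pa2g4 had 1 Zfp143 match each and Hjurp 1 ETS match. Fto and Glrx5 had an annotated start on the other strand within 1000 bp.

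The same makeup held across the 32817 promoter windows of the table, of which 12666 (38.6%) overlapped a constant site, 4492 another peak of the 0h list and 15659 no 0h peak. A GC box (GGGCGG, both strands here and below) was in 68.8% of windows over a constant site, 38.9% over another peak, 7.88% over none and 35.6% of all windows. The CCAAT box (CCAAT) did not follow that order, with 37.9%, 33.7% and 38.0% in the same 3 classes and 37.4% of all. Longer motifs were rarer and followed the order of the GC box. The ETS motif (CCGGAAGT) was in 8.52% of windows over constant sites, 2.07% over other peaks and 3.89% of all; the Zfp143 motif in 4.34%, 0.69% and 1.81%; and the CRE (TGACGTCA), which Creb proteins bind, in 3.38%, 1.31% and 1.79%. The NRF1 motif matched 2.22% of windows over constant sites, 0.60% over other peaks and 0.97% of all, and the YY1 motif 1.56%, 0.16% and 0.63%. The Myc-type E-box (CACGTG) was in 10.5%, 8.44% and 7.15%. The reverse order held for TATAAA, in 5.52% of windows over constant sites, 9.22% over other peaks and 13.6% of all, and for the AP-1 motif (TGANTCA), in 4.24%, 7.48% and 7.81%. These windows were also rich in CpG: the median ratio of observed to expected CpG was 0.79 over constant sites, 0.41 over other peaks and 0.38 over all windows, and the median GC content 62.3%, 55.3% and 52.7%. A start on the other strand within 1000 bp was annotated for 22.9% of windows over constant sites, 8.35% over other peaks and 11.3% of all. Motif counts rise with GC content in a window of fixed length, and their part in these shares was not tested. A match is only a run of letters, and says nothing of whether a factor bound there.

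Constant sites were wide, strong and near genes. Their median width was 835 bp, against 393 bp for the other 0h peaks, and their median 0h score 2225, against 344. Of the constant sites, 10925 (46.3%, Wilson 95% interval 45.6 to 46.9) lay within 1 kb of either end of a protein-coding gene model, against 8961 of the other peaks (6.86%, 6.7 to 7.0). These and later intervals cover counting error over peaks only, since the replicate spread behind a single list per group is unknown. More than 10 kb from a gene end lay 7737 constant sites (32.8%), 52.3% of them inside a gene model, against 66.5% of the other peaks. By chromosome, the share of 0h peaks that were constant ran from 12.8% on chromosome 18 to 18.6% on chromosome 19, leaving aside the Y chromosome with 3 constant sites.

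The rule took the strongest peaks more often than weak ones: 9615 of the strongest 10% of 0h peaks were constant (62.3%), against 152 of the weakest 10% (0.985%). Just outside the rule lay 7967 peaks in 11 of the 12 other lists, of which 4681 (58.8%) missed only Q4 and 2299 (28.9%) only the 48h list. Their median width was 544 bp, their median 0h score 877, and 16.7% lay at a gene end. Just inside, the smallest overlap with any list was under 10 bp for 24 constant sites and had a median of 310 bp. Scores ranked the sites alike within a course: Spearman's rho between lists, over the constant sites, was 0.77 to 0.92 within the ES cell course and 0.76 to 0.98 within MEF lists, but 0.47 to 0.62 between the courses. Lists of the same cells share libraries, merged reads or culture, so that these are descriptions. In all 13 lists, 315 constant sites were among the 1181 that make up the top 5% of each, and 273 of the 315 lay at a gene end.

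The best mean rank belonged to a peak of 402 bp inside the model of Lars2, the mitochondrial leucyl-tRNA synthetase, 479 bp from its end (chr9:123461795-123462196, mean rank 1.08 over the 13 lists). A peak of 432 bp nearest to Pex2, a peroxisome assembly gene 281740 bp away, came next (chr3:5860336-5860767, mean rank 2.69), followed by one of 308 bp inside Gphn, the gene of the synaptic scaffold gephyrin (chr12:78350869-78351176, 5.15), and one of 246 bp 10064 bp from Myl12b, a myosin light chain gene (chr17:70963654-70963899, 5.38). These 4 peaks were narrower than the median constant site, and whether their reads come from near-identical copies elsewhere in the genome was not tested. The next 6 were promoter peaks of 809 to 1431 bp that overlapped a gene end: Hjurp (mean rank 9.23), Prkaca (15.8), Fto (18.5), Mxd4 (35.3), Pa2g4 (39.1) and Kdm4b, a histone H3 lysine 9 demethylase gene (39.6). All 10 had a peak in every nascent and every mature list.

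In the lists as deposited, nascent chromatin held a peak at about 1 in 2 constant sites at 5 of the 6 times. At 0h, 9h and 48h the share was 51.8% (51.2 to 52.4), 50.2% and 61.2%, against 5.03%, 4.63% and 7.95% of the other 0h peaks. In reprogramming MEF it was 9.80% at 6h, 57.1% at 12h and 50.8% at 36h, against 0.0988%, 1.58% and 0.916%. Of the other 0h peaks, 21190 overlapped 0, 28258 overlapped 1 and 38540 overlapped 2 of the 12 other bulk lists. Many thus had few or no MEF bulk peaks, and their low shares in MEF follow in part from the rule. The 6h list was short, with 3222 peaks, against 15200 to 27693 in the other nascent lists, and the sources used here do not give the depth behind the lists, so that a missing peak is a peak not detected. Cut to the length of the 6h list, the 12h and 36h lists held 12.1% and 13.2% of the constant sites. With at least 50% of the 0h peak covered, the shares were 0.512%, 33.2% and 27.7% at 6h, 12h and 36h, and 32.7% at 0h. Constant sites made up most of the nascent lists, since 53.7% to 81.4% of the nascent peaks lay over one. The peaks in 11 of 12 lists were between both classes, at 15.1%, 14.8% and 23.5% in the ES cell course and 1.14%, 16.0% and 10.2% in MEF.

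As deposited, the mature lists held a peak at most constant sites at every time but 6h, where the list was the shortest. The share was 84.2%, 92.9% and 88.7% at 0h, 9h and 48h, against 34.8%, 47.2% and 30.4% of the other 0h peaks. In MEF it was 32.3%, 88.5% and 79.4% at 6h, 12h and 36h, against 0.681%, 8.45% and 4.14%. As in the nascent lists, the low MEF shares of the other 0h peaks follow in part from the rule. The 6h list had 14281 peaks, against 62704 at 12h and 38418 at 36h; cut to that length by score, the 12h and 36h lists held 39.5% and 46.0% of the constant sites, so that neither then held most. With at least 50% of the 0h peak covered, the share at 6h was 6.0%. Mature lists were longer than nascent lists of the same time, at 14281 to 94946 peaks, and 23.4% to 54.1% of their peaks lay over a constant site. A nascent peak rarely stood alone: at 0h 12187 constant sites had both, 7702 only a mature peak, 46 only a nascent peak and 3685 neither. At 12h these counts were 13421, 7479, 71 and 2649.

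**Figure D1:**
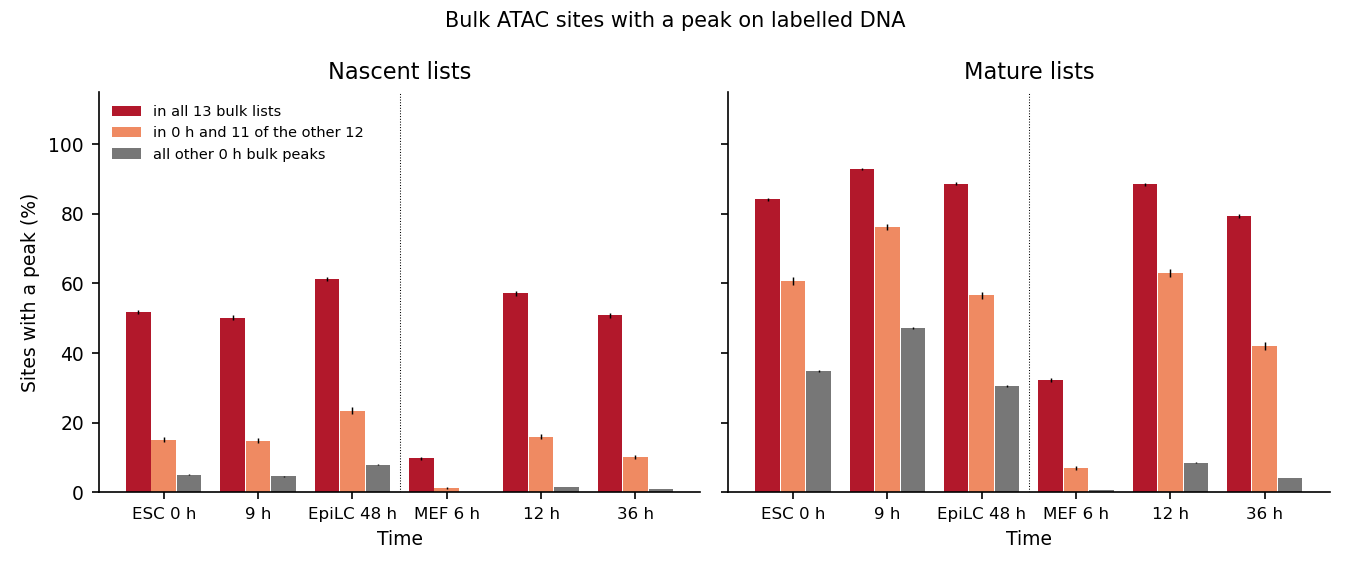
Share of sites with a peak (y axis, percent) in each nascent and mature list (x axis, by course and time) for constant sites, peaks in 11 of 12 lists and other 0h peaks, with Wilson 95% intervals. Constant sites lie above the other classes in all 12 lists, with 9.80% in the nascent list of 6h and 92.9% in the mature list of 9h as their lowest and highest values. In MEF lists the low shares of the other 0h peaks follow in part from the rule.

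Nascent peaks were more frequent at gene ends at every time. At gene ends 80.3%, 77.3% and 89.0% had a nascent peak at 0h, 9h and 48h, and 16.2%, 81.1% and 78.7% at 6h, 12h and 36h. More than 10 kb from a gene end the shares were 23.9%, 22.7% and 32.7% in the ES cell course and 3.98%, 33.7% and 23.9% in MEF. In mature lists the gap was narrower outside 6h, with 94.5% to 98.1% at gene ends and 66.1% to 87.2% beyond 10 kb.

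Constant sites were also stronger peaks, so both classes were set side by side within the strongest 10% of the bulk list of each time. There a nascent peak was present at 87.1% (86.4 to 87.7) of constant sites at 0h, against 51.1% of other peaks, and at 80.6% against 40.0% at 9h, 85.2% against 48.3% at 48h, 26.5% against 6.55% at 6h, 86.3% against 42.0% at 12h and 85.9% against 33.0% at 36h. Within this class and at gene ends the shares at 0h and 12h were 95.9% and 93.1% for constant sites, against 61.3% and 46.2% for other peaks; beyond 10 kb they were 64.0% and 70.4%, against 50.2% and 41.3%. The class did not equalise strength fully: the median bulk score within it was 4163 in constant sites and 3669 in other peaks at 0h, and 6329 and 5387 at 12h. At 0h strength differed more at gene ends, with medians of 4340 and 3394, than beyond 10 kb, with 3788.5 and 3722. In mature lists nearly all peaks of this class were recovered, constant or not, with 99.7% against 99.2% at 0h and 99.8% against 98.6% at 36h; at 6h the shares were 70.5% and 43.1%.

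**Figure D2:**
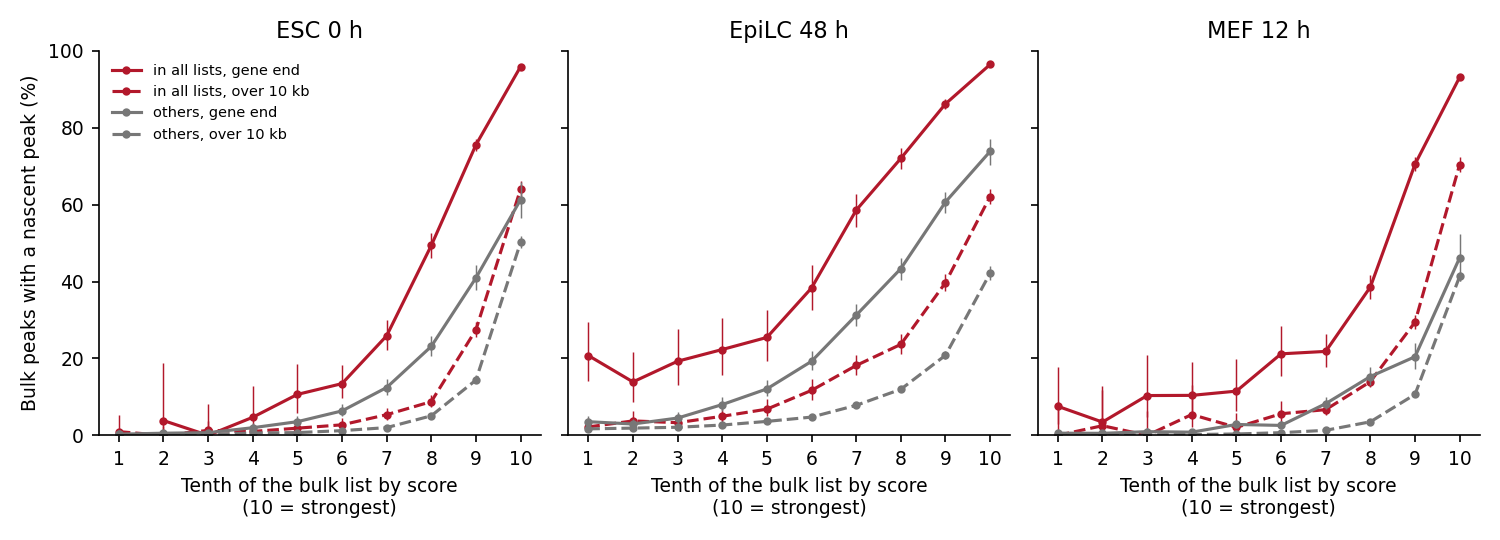
Share of bulk peaks with a nascent peak (y axis, percent) by class of the bulk score of the same time, 10 classes of equal size (x axis, weakest to strongest) at 0h, 48h and 12h, for constant sites and other peaks, at gene ends and more than 10 kb away; classes under 20 peaks are not drawn. In the strongest class at 0h, gene-end constant sites reach 95.9% and other gene-end peaks 61.3%.

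Over the 6 nascent lists the constant sites fell mostly into sites never and sites nearly always recovered. No nascent list held a peak at 5776 (24.5%), and 5571 of these had a mature peak in at least 1 list. At the other end 6651 (28.2%) had a peak in 5 nascent lists and 1947 (8.24%) in all 6, and 8474 (35.9%) were in every list but, at most, that of 6h. Of sites in no nascent list 10.6% lay at a gene end and 57.5% beyond 10 kb, with a median width of 486 bp; of sites in all 6, 84.8% and 6.47%, with 1153 bp. At least 1 mature list held 23409 constant sites (99.1%), and 205 had neither a nascent nor a mature peak at any time. Promoter windows changed along the same scale. From 0 to 6 nascent lists the share of windows with a GC box was 33.5% and 77.1% at the ends, the median ratio of observed to expected CpG 0.43 and 0.84, the share with a start on the other strand 5.74% and 32.8%, and the share with an AP-1 motif 12.2% and 3.6%. The CCAAT box was in 38.8% of windows over sites in no nascent list, 35.6% in 5 and 49.1% in 6.

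Among the best ranked constant sites that no nascent list held were a peak at the end of Ing4, a reader of methylated histone H3 (mean rank 2832), and peaks nearest to Uap1, an enzyme of UDP-GlcNAc synthesis, to Osbp, an oxysterol-binding protein gene, and to Mab21l3, Zfp956 and Lratd1, with mean ranks up to 4127. Each had a peak in 5 or 6 mature lists. Beyond 10 kb of a gene end, the best ranked sites in all 6 nascent lists were the peaks near Pex2, Gphn and Myl12b and one inside Jarid2, a cofactor of Polycomb repressive complex 2 (chr13:44869564-44870083). The others were nearest to 4930467E23Rik and Esp38, 30873 and 103432 bp away. These genes belong to multi-copy families, but at such distances the nearest gene does not give the sequence under a peak. Reads there may be shared with near-identical copies, which was not tested.

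A small set differed between the courses. In all 3 ES cell course nascent lists and in no MEF list were 534 constant sites, 45.5% at a gene end; their median rank by score among constant sites was 8871.5 in the 0h bulk list and 16515.5 in the 12h list. In the 12h and 36h nascent lists and in none of the ES cell course were 639, 14.6% at a gene end and 61.0% beyond 10 kb, with median ranks of 19320.5 at 0h and 6623 at 12h. By these medians, nascent presence went with bulk rank in the same course. The best ranked of the first set lay at A830018L16Rik, 2010315B03Rik and Gm14410, and 23815 bp from Rpp21, a subunit of ribonuclease P. Those of the second lay near Uggt2, Mdm1, Gmppb, an enzyme of GDP-mannose synthesis, and Kmt2e. These 8 were picked after their values were seen, and not all followed the medians. At 0h and 12h Rpp21 ranked 8355.5 and 2071.5, 2010315B03Rik 3111.5 and 2305.5, and Uggt2 370 and 896.5, against the order of the medians. A830018L16Rik, Gm14410, Mdm1, Gmppb and Kmt2e ranked in that order.

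Genes were matched to constant sites within 1 kb of either gene end or overlapping an annotated promoter window. Of 21887 protein-coding genes 12456 (56.9%) had one, and for 8713 of these (70.0%) such a site was nascent in every list but, at most, that of 6h. Lists of genes used in every cell were near complete. All 32 ribosomal protein genes had a constant site, and 27 a nascent one by that measure; the counts were 22 and 22 of 22 for splicing, 20 and 20 of 20 for ubiquitous transcription factors (among them Sp1, Nrf1, Yy1 and Zfp143), and 20 and 18 of 20 for chromatin regulators. Proteasome subunits followed with 25 of 26 (21 nascent), Psmb7 being the exception, transcription machinery with 17 of 18 (15), without Polr2c, and respiratory chain and mitochondrial genes with 18 of 20 (17), Cox6c being 1 of those without. Genes of chromosome architecture had 13 of 15 (11); Rad21 and Nipbl, which encode a cohesin subunit and the cohesin loader, had a constant site only elsewhere in or near the gene model. Of 20 genes commonly used as references 16 had one (12), and Actb, Hprt and Ywhaz were among those with none at an end.

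Growth and stress genes were also well covered. All 27 S phase genes (Mcm2 to Mcm7, Pcna and others) had a constant site and 25 a nascent one, as had 17 and 14 of 17 mitosis genes. All 24 genes of p53 and replication stress, such as Cdkn1a and Mdm2, had one, of which 16 were nascent by the same measure. Of 16 AP-1 and immediate early genes 15 had one (9), Batf being the exception.

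Lists tied to cell identity were incomplete, and are to be read beside the 56.9% of all protein-coding genes with a constant site. Fibroblast (68.8%), formative (64.7%), Hox (61.9%) and imprinted (55.6%) genes stood near or above that share. Naive pluripotency (41.2%), epithelial (33.3%) and germ layer (21.4%) genes stood below it, as did the lists of other tissues. Of 32 fibroblast genes 22 had a constant site (9 nascent), among them Col1a1, Fn1 and Twist1, but not Pdgfra, Prrx1 or Postn. Of 17 naive pluripotency genes 7 had one (6): Klf2, Klf4, Klf5, Tfcp2l1, Tbx3, Pou5f1 and Sox2, but not Nanog, Esrrb or Zfp42. In the MEF lists, reads at Pou5f1, Sox2, Klf4 and Myc can come from the inducible cassette as well as from the endogenous gene, which the lists do not tell apart. Formative genes had 11 of 17 (6), Hox genes 13 of 21 (4) and imprinted genes 5 of 9 (3). Of 14 germ layer genes only Gata6, Tbx6 and Mesp1 had one, of 18 epithelial genes Krt8, Cldn3, Tjp1, Esrp1, Esrp2 and Dsp. Of 8 macrophage and blood genes Cd68 and Spi1 had one, of 8 endothelial genes Kdr, Tek and Erg, of 11 muscle and neural genes Acta1, Tubb3, Map2 and Nes, and of 22 genes restricted to single tissues Apoa1, Syn1, Sftpc and Krt10. A site within 1 kb of a gene end can also belong to a neighbouring gene, which position alone does not tell apart.

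**Figure D3:**
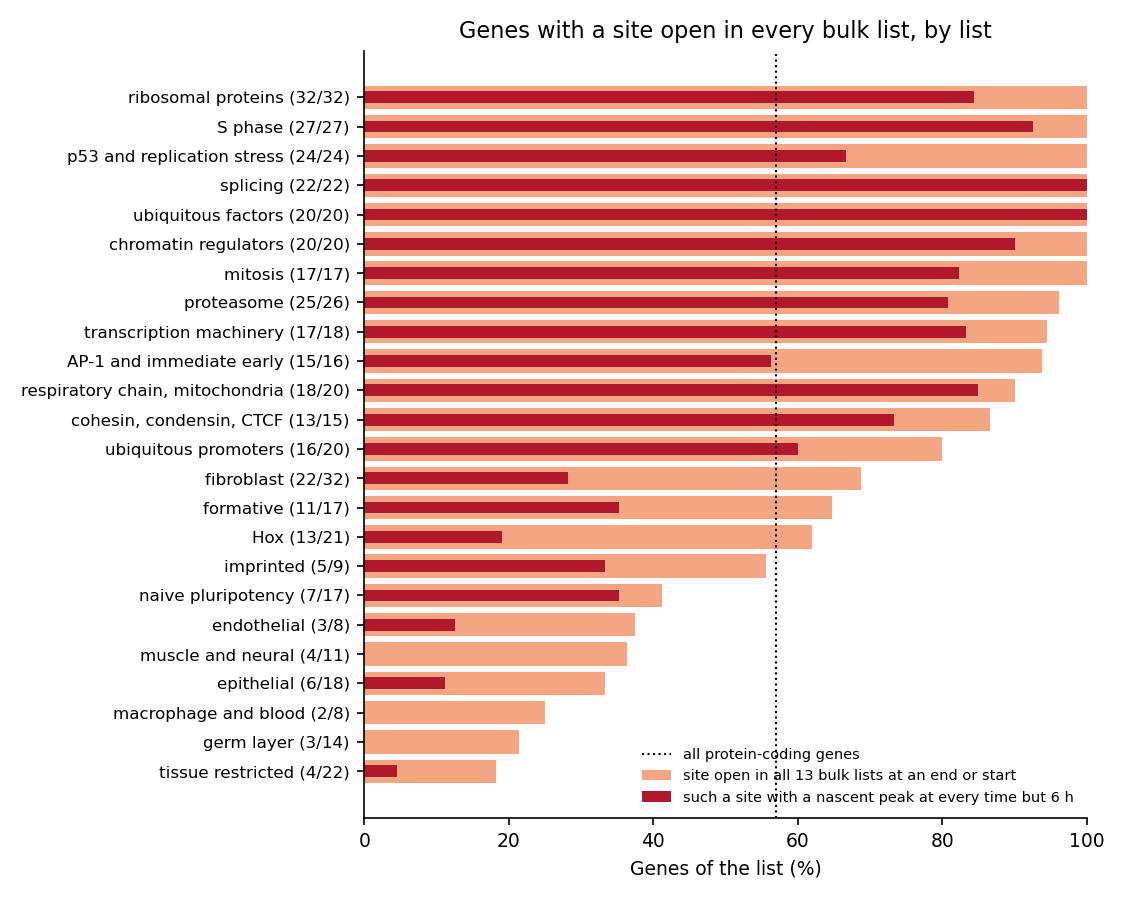
Share of the genes of each list (y axis, one row a list) with a constant site at a gene end or annotated start, and with one that was nascent in every list but, at most, that of 6h (x axis, percent). Splicing and ubiquitous factor genes are at 100% for both, against 56.9% of all protein-coding genes with a constant site.

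In the aphidicolin experiment the constant sites were again listed almost completely, in libraries that the rule did not use. A peak was present at 99.4%, 99.8% and 99.7% of them in the 3 aphidicolin libraries and at 99.2%, 99.2% and 99.0% in the 3 untreated libraries, with means of 99.64% ± 0.19 and 99.13% ± 0.15 (SD, n = 3 each; two-sided exact permutation test, p = 0.1, the smallest that 3 against 3 allows). With lists cut to the length of the shortest, 116939 peaks, the means were 98.99% and 98.98% (p = 1, exact permutation test). All 6 libraries held 23231 constant sites (98.4%), and 20 were in no library. Of the other 0h peaks 24.2%, 27.4% and 26.3% had a peak in the aphidicolin libraries and 22.0%, 21.4% and 19.5% in the untreated ones. Many of these were in few or no MEF bulk lists, so that their low shares follow in part from the rule. In the deposited table of 139000 counted regions, 23492 constant sites (99.5%) overlapped 24964 regions, against 22.7% of the other 0h peaks; 128 did not and have no count.

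Regions over constant sites took a smaller share of the counts with aphidicolin. The share was 46.6%, 44.5% and 44.7% in aphidicolin libraries a, b and c, and 52.4%, 50.1% and 47.9% in untreated libraries a, b and c. The groups did not overlap, at 45.3% ± 1.2 with aphidicolin and 50.2% ± 2.3 untreated (SD, n = 3 each; two-sided exact permutation test, p = 0.1, again the smallest possible). Totals were 55158844 to 78677381 counts with aphidicolin and 41183769 to 49440524 untreated, and the 6 libraries are bulk cultures, in which fewer cells with an open site and less opening per cell cannot be told apart.

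Region by region, constant sites were lower with aphidicolin far more often than higher, by modest folds. Tested with edgeR's quasi-likelihood test over 138996 regions (adjusted p under 0.05, Benjamini-Hochberg), 12106 of their 24964 regions (48.5%) were lower with aphidicolin and 518 (2.07%) higher, where 17.9% of all tested regions were called lower and 18% higher. The median log2 fold change was -0.25 over constant sites and 0.02 over all regions. All 3 aphidicolin libraries lay below all untreated ones at 52.9% of the regions over constant sites, against 22.9% of all regions, and above them at 3.66%, against 23.7%. Past a fold of 1.5, tested as a threshold with edgeR's glmTreat, 10 were lower and 0 higher (135 and 22 at an unadjusted p under 0.05), where the shares of all regions were 0.0683% lower and 0.309% higher. All regions over constant sites passed the filter on low counts. Without aphidicolin library b the calls over constant sites were 7549 lower and 246 higher, without aphidicolin c 7803 and 267, and without untreated b 8650 and 298. Over all tested regions these were 15185 and 15282, 15971 and 16040, and 16890 and 18162.

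With TMM factors, lower calls within the constant sites were more frequent at gene ends and at sites held by more nascent lists. With offsets that follow region strength both orders turned round, in part by construction, as given below. At gene ends 6829 of 11475 regions were lower and 98 higher, with a median of -0.29; beyond 10 kb 2764 of 8114 were lower and 331 higher, with a median of -0.17. Of regions over sites in no nascent list 1463 of 5863 were lower (median -0.12), in 5 lists 4744 of 7188 (-0.30), and in all 6 lists 1732 of 2056 (84.2%, -0.38). Counts per region moved along the same scale. Regions over constant sites had a median of 3.85 log2 CPM (counts scaled to library size), against 1.82 over all regions, and in the strongest 10% of all regions 75.2% of those over constant sites were lower with a median of -0.33, against 62.4% and -0.28 for other regions of that class. Within that strongest class 5562 of 7414 regions over constant sites at gene ends and 1241 of 1665 beyond 10 kb were lower, and in the class below it 884 of 2334 and 735 of 1715. In the fifth class from the bottom the medians were -0.07 and 0.10, and in the weakest 0.08 and 0.38.

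Over constant sites lower calls outnumbered higher ones under each scaling. Their number and their order by position and nascent lists depended on how libraries were put on 1 scale. With TMM factors, used above, a high region tended to be lower and a low one higher. Offsets that follow region strength set the median of all regions of each class near 0 by construction. The strongest class held 10504 regions over constant sites and 3396 others, so there the offsets were fitted mostly on constant sites. It also held 7414 of the 11475 gene-end regions over constant sites and 1908 of the 2056 over sites in all 6 nascent lists. Their lower calls with offsets were thus limited in part by construction. With offsets 3347 of 24964 regions over constant sites were lower and 1339 higher, with a median of -0.05. Of all 138996 tested regions 14900 were lower and 15630 higher. Over constant sites at gene ends 1037 of 11475 were lower, a smaller share than over all regions, and 716 higher (median -0.02). Beyond 10 kb 1184 of 8114 were lower and 438 higher (median -0.07), so that lower calls were then the less frequent at gene ends. Likewise 176 of 2056 regions over sites in all 6 nascent lists were lower with offsets (median -0.01), against 991 of 5863 over sites in none (-0.11). With library totals these were 1203 (-0.23) and 528 (0.03), in the order of the TMM values. Library totals moved the median of all regions to 0.18, and the constant sites stayed below it, at -0.09 with 6079 lower and 1626 higher calls. Of all tested regions 11101 were then lower and 42149 higher. DESeq2, with its own size factors, gave 11859 lower and 350 higher calls over constant sites, against 23359 and 19849 over all 139000 regions. Lower under all 4 scalings were 2209 regions (18.2% of 12106), of which 819 lay at gene ends (7.14% of the regions there), 677 at 1 to 10 kb (12.6%) and 713 beyond 10 kb (8.79%). Higher under all 4 were 299 of the 518, with 186 beyond 10 kb. Calls shared by the 4 scalings were not counted over all regions. Whether the libraries differ in scale along region strength or the strong sites themselves changed cannot be told apart with these counts.

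**Figure D4:**
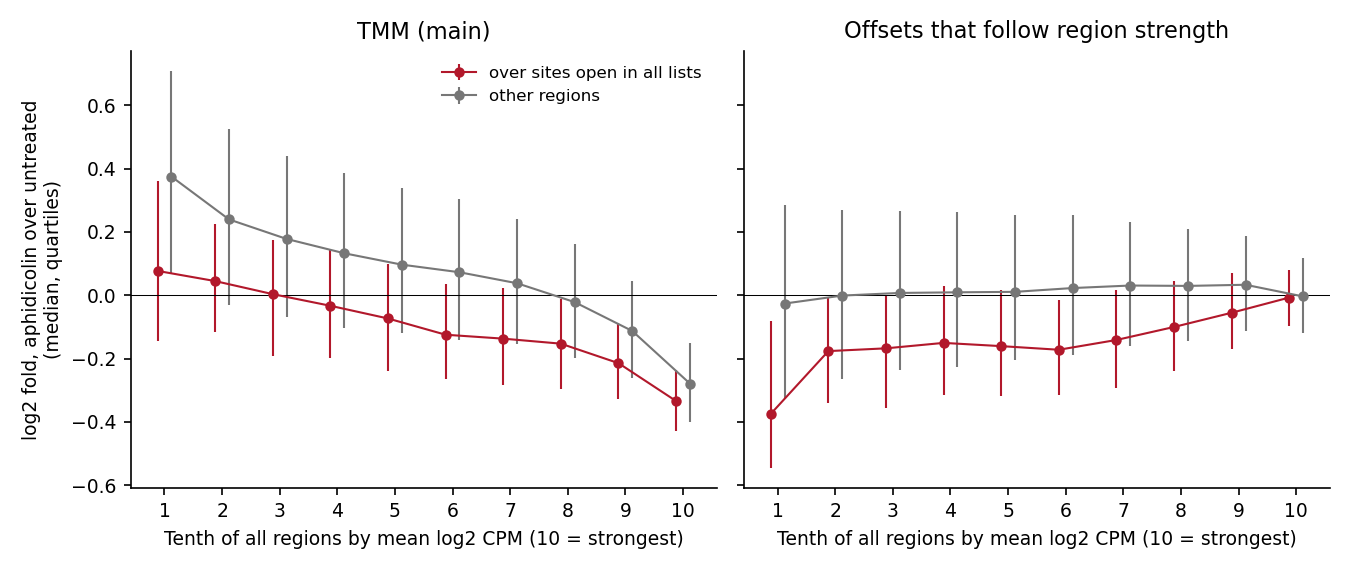
Log2 fold change, aphidicolin over untreated (y axis; points, medians; bars, quartiles), by class of mean log2 CPM, 10 classes of equal size (x axis, weakest to strongest) for regions over constant sites and other regions, with TMM factors (left) and with offsets that follow strength (right). With TMM the median over constant sites runs down to -0.33 in the strongest class, and with offsets it is -0.01 there. With offsets it lies below that of other regions in weaker classes. The medians are -0.37 and -0.03 in the weakest class and -0.16 and 0.01 in the fifth from the bottom.

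The regions that lost most were chosen by a fixed rule of size, with groups that do not overlap. Lrrc75a had the largest loss, in a region 669 bp from its end: 16.7, 15.9 and 15.2 CPM in aphidicolin libraries a, b and c, against 36.0, 33.5 and 34.9 CPM untreated. This is a log2 fold change of -1.13 (SE 0.0803, edgeR adjusted p = 7.2e-07), and -0.86 with strength offsets; another region near the same gene fell by 1.00. A region 1515 bp from Eef1a1, a translation elongation factor gene, had 18.4, 17.4 and 17.2 CPM with aphidicolin, against 34.1, 36.7 and 42.6 CPM untreated (-1.10, SE 0.0899, edgeR adjusted p = 4.4e-06). Rpl3, a protein of the large ribosomal subunit, had 95.6, 93.9 and 86.9 CPM with aphidicolin, against 162, 188 and 186 CPM untreated (-0.96, SE 0.0818, edgeR adjusted p = 6.9e-06). With strength offsets Rpl3 stood at -0.41. Further losses lay near Lmtk3 (-1.01), Vmn2r29 (-0.90), Rnf24 (-0.85), Rpl26 (-0.85) and Nfic, a nuclear factor I gene (-0.84). Vmn2r29 belongs to a family of near-identical vomeronasal receptor genes, and its value is uncertain.

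The largest gains were at weaker, distal regions. Near Pcdh15, a protocadherin gene 121820 bp away, the CPM were 5.93, 6.70 and 6.18 with aphidicolin, against 2.57, 3.16 and 3.95 untreated (log2 fold change 0.97, SE 0.133, edgeR adjusted p = 0.00011). Near Tmem243 they were 6.83, 8.13 and 9.29 with aphidicolin, against 3.47, 4.63 and 4.62 untreated (0.94, SE 0.13, edgeR adjusted p = 0.00012). Near Rlf, a zinc finger gene, they were 9.48, 9.78 and 10.7 with aphidicolin, against 5.00, 5.90 and 5.65 untreated (0.86, SE 0.0986, edgeR adjusted p = 4.6e-05). As for the losses, the rule took only regions in which no library of one group reached the other. The rest were near Arhgef4 (0.89), Nrg1, a ligand of ErbB receptors (0.88), Zfp978 (0.87), Hsf2, a heat shock factor (0.84), Gm28710 (0.82), Sgo2b (0.81) and Shank2, a postsynaptic scaffold (0.77). Of the 10, Hsf2 and Sgo2b were 6136 and 5085 bp from a gene end and the others more than 10 kb; Zfp978 is 1 of a family of similar zinc finger genes, and its value is uncertain. With strength offsets all 10 gains stayed between 0.70 and 0.94.

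**Figure D5:**
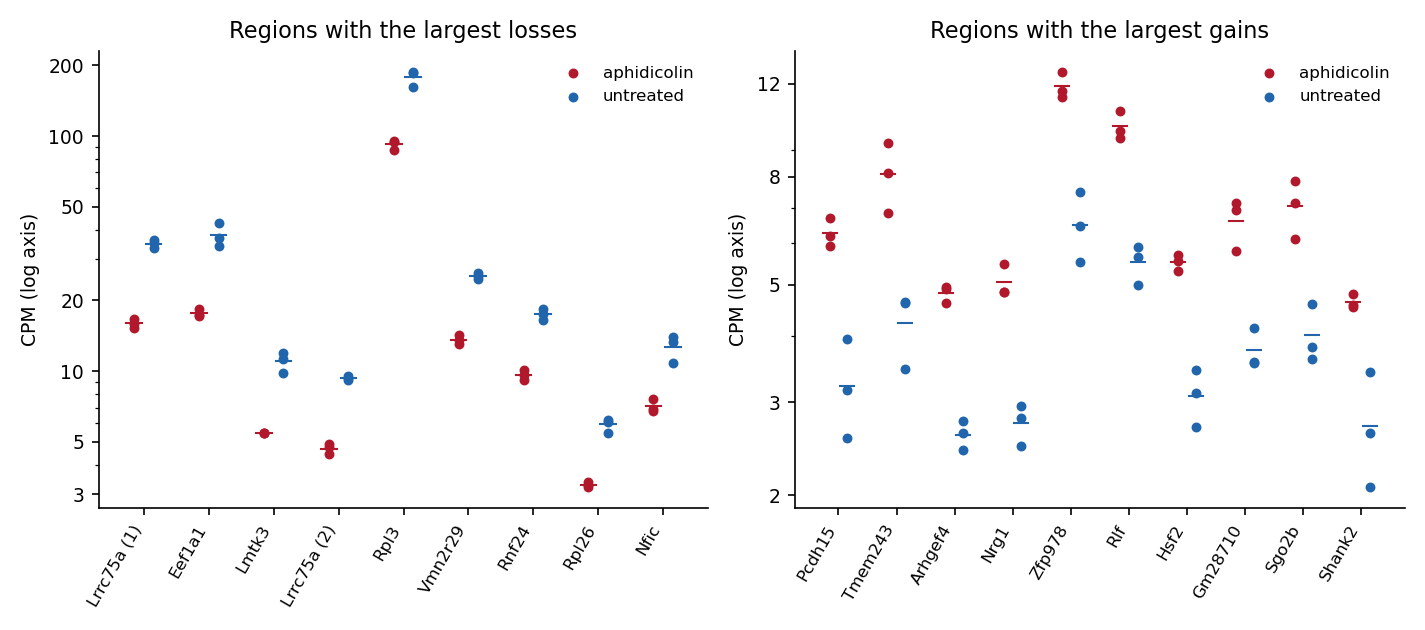
CPM (y axis, log scale) of regions over constant sites from the 10 with the largest losses (9 of them are shown) and the 10 with the largest gains, as points for each library, aphidicolin left of untreated. Rpl3 lies between 86.9 and 95.6 with aphidicolin and between 162 and 188 untreated.

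Regions over constant sites at the ends of list genes numbered 323, of which 226 were lower and 0 higher by edgeR (253 and 2 at an unadjusted p under 0.05), and 0 were higher by DESeq2; the median was -0.32. Of all gene-end regions over constant sites 6829 of 11475 were lower, with a median of -0.29, so that the lists are to be read beside that share. Chromatin regulators had 17 of 17 lower (median -0.37), with Mbd3 and Hdac1, subunits of the NuRD complex, at -0.64 and -0.56. Proteasome genes had 18 of 22 lower (-0.37; Psmb3 -0.42), splicing genes 18 of 22 (-0.35; Sf3b1 -0.45), ribosomal protein genes 19 of 31 (-0.30; Rps19 -0.83), respiratory chain and mitochondrial genes 11 of 12 (-0.38; Ndufv1 -0.62), ubiquitous factors 16 of 19 (-0.33; Sp1 -0.51), transcription machinery 9 of 13 (-0.29) and chromosome architecture 9 of 12 (-0.31). Reference genes had 15 of 17 lower (-0.44), among them Pgk1 (-0.65) and Gapdh (-0.53). With strength offsets these 9 lists gave 8 of 31 lower for ribosomal protein genes and at most 5 lower for any other, with at most 2 higher. Their medians stayed below 0 for proteasome (-0.14), reference (-0.11), respiratory chain and mitochondrial (-0.06) and ribosomal protein genes (-0.03) and transcription machinery (-0.006). Above 0 stood chromosome architecture (0.08), ubiquitous factors (0.05), splicing (0.008) and chromatin regulators (0.002). Sp1 stood at 0.07, so the direction did not hold for every list under every scaling.

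S phase genes had 19 of 23 regions lower (median -0.32; Rpa1, a subunit of the single-strand binding protein of replication, -0.55), and mitosis genes 14 of 17 (-0.39; Cenpf -0.67 and Ube2c, a conjugating enzyme of the anaphase-promoting complex, -0.63). With library totals 10 and 9 of these stayed lower, and with strength offsets 2 and 4. Of p53 and replication stress genes 9 of 21 were lower (-0.22), with Bax, a pore-forming protein of apoptosis, at -0.49 and Sesn2 at -0.45. With strength offsets 5 of these 21 were higher and 1 lower, and with library totals 3 and 5. AP-1 and immediate early genes had 14 of 18 lower (-0.32; Fosl2 -0.66 and Junb -0.50), and 1 lower and 2 higher with strength offsets.

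Fibroblast genes had 15 of 24 regions lower (median -0.29), with Thy1, a surface protein of fibroblasts, at -0.67 and Loxl1, a collagen cross-linking enzyme, at -0.52; with strength offsets 2 were lower and 2 higher, and Thy1 stood at -0.52. Naive pluripotency genes had 7 of 10 lower (-0.34). Sox2 had 41.0, 39.3 and 38.4 CPM with aphidicolin, against 69.0, 69.9 and 63.6 CPM untreated (-0.77, SE 0.0775, edgeR adjusted p = 2.2e-05), and Pou5f1 21.5, 18.9 and 17.8 CPM with aphidicolin, against 32.3, 31.2 and 31.0 CPM untreated (-0.70, SE 0.0857, edgeR adjusted p = 6.1e-05). Both stayed lower with strength offsets, at -0.36 and -0.43, and for both reads from the cassette cannot be told apart from those of the endogenous gene. Formative genes had 3 of 11 lower (-0.08), Hox genes 5 of 13 (-0.24), imprinted genes 2 of 4 (-0.22; Cdkn1c -0.56), epithelial genes 3 of 5 (-0.40), macrophage and blood genes 2 of 2 (Cd68 -0.59), muscle and neural genes 3 of 6 (-0.26) and tissue-restricted genes 1 of 3 (-0.23). Regions at the germ layer genes Gata6 and Mesp1 (-0.21 and -0.11) and at the endothelial genes Erg, Tek and Kdr (-0.28, -0.08 and 0.05) did not pass the test, and Gata6, Mesp1 and Tek stood above 0 with strength offsets, at 0.10, 0.02 and 0.18.

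The best ranked constant sites split by kind. The promoters of Pa2g4 (-0.64, edgeR adjusted p = 5.5e-05), Prkaca (-0.63), Mxd4 (-0.58), Fto (-0.49) and Kdm4b (-0.46) were lower, and with strength offsets the first pair stood at -0.14 and -0.15 and Kdm4b at 0.03. The narrow peaks had fold changes near 0: Lars2 had 102, 90.4 and 95.6 CPM with aphidicolin, against 98.9, 77.0 and 94.7 CPM untreated (0.09, edgeR adjusted p = 0.46), and those near Pex2, Gphn and Myl12b stood at 0.09, 0.08 and -0.07. Aphidicolin and untreated libraries overlapped at each of these. With strength offsets Lars2, Pex2 and Gphn stood at 0.59, 0.38 and 0.36 and passed the test, as did Hjurp at 0.32, against -0.22 (edgeR adjusted p = 0.064) with TMM. The sites in no nascent list had fold changes of -0.31 (Osbp) to -0.08 (Zfp956), with Uap1 at -0.25 (edgeR adjusted p = 0.038), Mab21l3 at -0.29, Lratd1 at -0.23 (edgeR adjusted p = 0.045) and Ing4 at -0.19 (edgeR adjusted p = 0.096).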

How the data were processed

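Per the submitters' processing notes, the tools were bcl2fastq 2.19.1, bedtools 2.26.0, Bowtie2 2.2.5, cutadapt 2.2.0, MACS2 2.2.0 and SAMtools 1.4.1, and the build mm10; the sources used here do not give parameters, read shifting or the counting tool. The authors deposited peak lists with a caller's score per peak, used here to describe, rank or filter peaks within a list, and a table of raw read counts for the aphidicolin experiment, with 139000 regions and 6 libraries. Per the peak names in the deposited lists, MEF course lists rest on merged replicates, and those of sorted fractions take each score from 1 library; how ES cell lists were pooled is not stated. In MEF, the nascent-arm bulk list was assigned by elimination from that of the mature arm. Count columns name a group and a number with no tie to a sample, hence the names a, b and c. The smallest chi-square per degree of freedom between any 2 libraries was 1.88, so each counted as a sample, and p-values reflect how far these samples varied, perhaps for technical reasons.

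The constant sites, the gene lists and the naming rule were chosen with earlier results of these data known. Peaks were matched at 1 bp or more, and shares carry Wilson 95% intervals. Gene models and promoter windows came from RefSeq tables of GRCm38.p6. Counts were tested with edgeR 4.0.16 in R 4.3.3 (TMM factors, filterByExpr, glmQLFit and glmQLFTest, two-sided, 3 libraries a group, Benjamini-Hochberg over 138996 regions, threshold 0.05). CPM are edgeR's, with TMM factors. On simulated counts for 138988 regions, changes of 1 and 1.5 on the log2 scale were recovered in 95.3% and 100% upward and, for -1 and -1.5, in 92.3% and 100%. The simulation held no smaller changes and no shift between libraries along region strength. It therefore does not bear on modest folds or on the choice of scaling. Named were the 10 best ranked sites over the 13 bulk lists, the 6 best ranked in all nascent lists beyond 10 kb and the 6 best in none, the 10 largest changes in each direction past the threshold, over the median log2 CPM and without overlap between groups, and up to 4 genes per list; some genes the rule gave are not reported here. Alternatives were library totals, offsets that follow region strength (a loess fit of each library), DESeq2 1.42.0, no filter, regions with a peak in all 6 lists, a replicate block, a tested fold of 1.5 and leaving out each library; for the lists, the overlap, the score and the list length. The Zfp143 motif was added after promoter sequences were seen.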

Additional observations from a re-analysis of the deposited data

How the results depend on the processing

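The rule gave 8685 constant sites when each list had to cover at least 50% of the 0h peak; the other variants gave 22698 to 31587. Under that overlap nascent recovery was 32.7%, 34.0% and 45.6% at 0h, 9h and 48h and 0.512%, 33.2% and 27.7% at 6h, 12h and 36h, and mature recovery 78.5%, 89.3%, 77.2%, 6.00%, 72.6% and 53.6% in the same order. Constant sites in the stronger 50% of the 0h list had nascent recovery of 56.2%, 54.4%, 65.4%, 10.4%, 59.7% and 53.8%. Cut to the shortest list of its course, nascent recovery was 51.1% at 0h, 53.6% at 48h, 12.1% at 12h and 13.2% at 36h, and mature recovery 87.9% at 9h, 87.0% at 48h, 39.5% at 12h and 46.0% at 36h. The gene-end share was 43.3% within 500 bp, 50.7% within 2000 bp and, chosen after seeing the data, 54.0% with annotated starts added.

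Of 12106 lower and 518 higher regions over constant sites, library totals gave 6079 and 1626, strength offsets 3347 and 1339, restriction to regions peaked in all 6 lists 8534 and 766, DESeq2 11859 and 350, and a tested fold of 1.5 gave 10 and 0. Higher calls were thus 4.10% of all calls with TMM, 21.1% with library totals and 28.6% with offsets. Without 1 library the lower calls numbered 7549 (without aphidicolin b) to 14433 and the higher ones 246 to 757. Without aphidicolin c they were 7803 and 267 and without untreated b 8650 and 298. Over all tested regions, lower and higher calls numbered 24874 and 25061 with TMM, 11101 and 42149 with library totals, and 14900 and 15630 with offsets. With regions peaked in all 6 lists they numbered 15902 and 16523, and with DESeq2 23359 and 19849. Without 1 library they ran from 15185 to 28012 lower and from 15282 to 29925 higher. The median of -0.25 was -0.089 with library totals, -0.051 with offsets and -0.18 where all 6 lists had a peak, and -0.29 to -0.19 without 1 library. The replicate block gave 14593 lower and 780 higher calls; deviations of same-numbered libraries correlated at 0.263, 0.0123 and 0.154, not every library correlated best with its own number, and the numbers were not taken as pairs. Some named regions changed sign: Myl12b (0.089 with totals, 0.21 with offsets, 0.0067 in regions peaked in all 6 lists, and -0.14 to 0.018 without 1 library, the highest without untreated a), Zfp956 (0.078 with totals, 0.11 with offsets, and -0.15 to 0.016 without 1 library, the highest without untreated c), Mesp1 (0.053 with totals, 0.021 with offsets, and -0.17 to 0.041 without 1 library, the highest without untreated a), Tek (0.077 with totals, 0.18 with offsets), Lars2 (-0.0023 without untreated b), Kdr (-0.11 to 0.16 without 1 library, the lowest without aphidicolin a, and -0.00027 without untreated b) and, with offsets, Hjurp (0.32, past the threshold, against -0.22), Gata6 (0.10), 4930467E23Rik (0.16), Sp1 (0.065, against a called -0.51), Kdm4b (0.031, against a called -0.46) and Ing4 (0.0014). Except for the offsets and list cuts, whose construction sets the value, the cause was not tested. The difference in sites listed per library kept its direction, at 0.429 to 0.624 percentage points without 1 library. List depth is not known, and a missing peak in a short list was not detected at its depth.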
